A study of Mus musculus with 6 samples.

Results

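Fibroblasts marked by Pi16, Dpp4, Sema3c and Smpd3 were described in single-cell RNA libraries of the mouse sciatic nerve. A cell was taken as a member of this Pi16 class when it passed a fibroblast gate and when its raw UMIs, each of which stands for 1 captured RNA molecule, summed over these 4 genes came to at least 3 and exceeded the same sum over each of 3 other sets of 4 genes. The gate asked for at least 2 UMIs over Pdgfra, Lum and Serpinf1 and for 0 UMIs of Sox10, Cdh5 and Myh11, which mark Schwann, endothelial and mural cells. The other sets were Cilp, Comp, Sfrp4 and Itgbl1 (Cilp class), Cxcl13, Cxcl14, Ccl19 and Fgf10 (Cxcl14 class) and Angptl7, Sox9, Osr2 and Abca6 (Angptl7 class). At month 2 the rule found 1212 cells, out of 5094 that passed the gate and 10042 cells in all, where a cell is a barcode with at least 1000 UMIs and under 10% of them from mitochondrial genes. The 5 libraries analysed held 11524 such cells.

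All mice were adult C57BL/6J wild-type animals of both sexes. In the sham groups the sciatic nerve of the left thigh was laid open and not touched further, and in the PSNL groups a part of it was tied off with an absorbable suture (partial sciatic nerve ligation). Month 2 was covered by 2 sham and 2 PSNL libraries, 1 of each per batch, and day 5 by 1 PSNL library from batch 2, with the sham library of day 5 not analysed here. Each library pooled the operated nerves of 4 animals, so the library is the replicate, and a batch is a shared cell sort, library preparation and sequencing run. Cells were not assigned to single animals or to a sex. Only nerve close to the lesion was taken, and the sort kept live nucleated singlets free of myelin, CD45 and Ter119, which leaves out most leukocytes and red cells. P-values measure the spread between these pools.

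Fibroblasts that express Pi16 and Dpp4 are known from the outer coat of vessels and from the loose connective tissue around many organs, where they are described as adventitial or universal fibroblasts. In a nerve the corresponding layer is the epineurium, which lies outside the perineurial sheath and the endoneurium around the axons. Pi16 encodes a secreted protein of the CAP superfamily, Dpp4 a surface peptidase that trims chemokines and peptide hormones, Sema3c a secreted semaphorin that acts through neuropilins and plexins, and Smpd3 a neutral sphingomyelinase that releases ceramide. The cells were dissociated before capture, so their place in the nerve was not measured and the word epineurial was not used for them.

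The 4 marker genes lie on chromosomes 17 (Pi16), 2 (Dpp4), 5 (Sema3c) and 8 (Smpd3) of the mouse build GRCm38. Their levels, which the rule used and which are given as a description with no test, are CPM (UMIs per 1000000 UMIs summed over the members of a library), and all values by library follow the order sham and PSNL of batch 1, then sham and PSNL of batch 2. Pi16 stood at 5603, 3972, 2823 and 3572 CPM, against 433 ± 92.6 CPM in the Cilp class, 129 ± 66.8 CPM in the Cxcl14 class and 31.7 ± 12.2 CPM in the Angptl7 class (mean ± SD, n = 4 libraries). Dpp4 stood at 383, 320.1, 260.2 and 367 CPM and Sema3c at 779, 895, 643 and 876 CPM. The highest library was less than 2-fold above the lowest for both, whereas Smpd3, at 946, 2447, 1109 and 910.4 CPM, was more than 2-fold higher in the PSNL library of batch 1 than in any other. Pi16 alone supplied 60.4% of the UMIs by which the members were chosen, and Smpd3 between 12.3% and 32.1% of them by library. Pi16 was seen in 93.7% to 96.6% of the members of a library. In Sox10-positive Schwann cells, which should lack it, 1 of 3 cells of the first library and 3.74%, 2.42% and 3.24% of the others held a UMI of it, at median depths of 3701, 2574, 2966.5 and 3252 UMIs against 6855, 3321, 4374 and 6331 UMIs in the members. Exons of Dpp4, Pi16 and Smpd3 overlap genes on the opposite strand. Whether reads were counted by strand is not given in the sources used here.

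Library totals ran from 4099617 to 19557393 UMIs, and the median depth of the members was 6855, 3321, 4374 and 6331 UMIs, with 10143 UMIs at day 5. The sham library of batch 1 stood apart, with 544 cells of which 89.5% passed the gate, against 60.9%, 51.8% and 37.9% in the other month 2 libraries. Between 0 and 3 cell barcodes were shared by any pair of libraries, and none of them was a member in both. Counts of cells say nothing on absolute numbers, since fewer cells of a class and less RNA per cell cannot be told apart in sorted pools.

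The Pi16 class made up 30.3% to 30.6% of the gated fibroblasts in batch 1 and 19.0% to 20.9% in batch 2, with sham and PSNL close together in each. The members numbered 149, 430, 334 and 299, which was 30.6% (95% exact binomial interval 26.5 to 34.9), 30.3% (28.0 to 32.8), 19.0% (17.2 to 20.9) and 20.9% (18.8 to 23.1) of the gated cells. These intervals cover counting error only. The shares depend on depth. With each cell thinned to 1000 UMIs they were 20%, 19.9%, 11.1% and 10.1% of the 400, 1190, 1499 and 1230 cells that then passed the gate, and 11.5% at day 5. The mean of the PSNL libraries exceeded that of the sham libraries by 0.828 percentage points (exact permutation p = 1, two-sided, with 2 libraries in each group), with -0.250 points within batch 1 and 1.91 points within batch 2. With 2 against 2 libraries this test cannot give a p below 0.333. Of all cells, the class made up 27.4%, 18.5%, 9.84% and 7.92%, a mean difference of -5.42 points (exact permutation p = 0.667), with -8.91 points within batch 1 and -1.92 points within batch 2. Without the sham library of batch 1 this difference of group means was 3.36 points, with the PSNL library of batch 1 left unpaired. At day 5, 61 of 295 gated cells (20.7%, 16.2 to 25.8) and 4.12% of all 1482 cells were members.

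**Figure D1:**
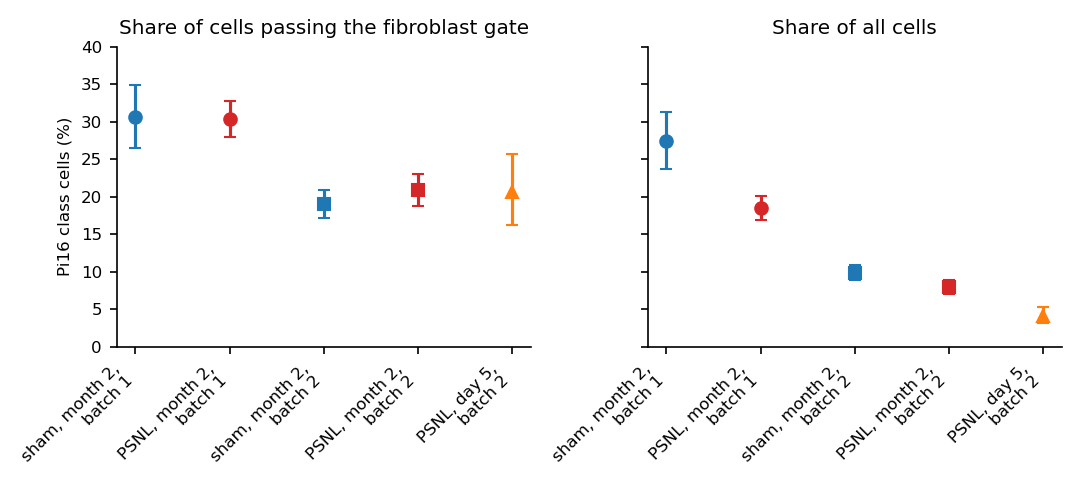
Share of cells in the Pi16 class (vertical axis, %) in each library, of the cells that pass the fibroblast gate (left) and of all cells (right). Points are single libraries, blue for sham, red for PSNL at month 2 and orange for PSNL at day 5, with circles for batch 1, and bars are 95% exact binomial intervals. On the left, both libraries of batch 1 lie at 30.3% to 30.6% and both month 2 libraries of batch 2 at 19.0% to 20.9%.

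Members differed in how many of the 4 markers they carried. All 4 were found in 549 of the 1212 members (45.3%), 3 in 363, 2 in 211 and 1 in 89. Pi16 was missing from 69 members, Smpd3 from 243, Sema3c from 248 and Dpp4 from 492. The share with all 4 was 62.4%, 40.2%, 34.7% and 55.9% by library, highest in the 2 libraries whose members were sequenced most deeply. The median sum was 25 UMIs. Just inside the threshold, 32 members had a sum of 3, and just outside it, 33 gated cells led with a sum of 2, 46 were tied with another set, and 620 had a sum of at least 3 and a larger one of another set.

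The weakly marked members carried little of what set the class apart from the others. The summed level of the 20 genes named next as higher in the class, none of which the rule used, was 2709 CPM in members with all 4 markers, 1545 CPM with 3, 806 CPM with 2 and 209.8 CPM with 1, against 71.3 CPM in the Cilp, 111 CPM in the Cxcl14 and 68.6 CPM in the Angptl7 class. The 10 genes named as lower ran the other way, from 152 CPM with all 4 markers to 1508 CPM with 1 marker. Since these genes were themselves chosen from the comparison of the classes, the order is a description and no test was made. The depth of the cells differed too, with medians of 3452, 3404, 4051 and 5837 UMIs for 1, 2, 3 and 4 markers. It did not rise from 1 to 2 markers, and its part in the order was not tested. The 32 members at the threshold, with 122 CPM of the 20 higher and 2302 CPM of the 10 lower genes, were close to the 33 cells just outside it, at 170.2 and 2269 CPM.

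**Figure D2:**
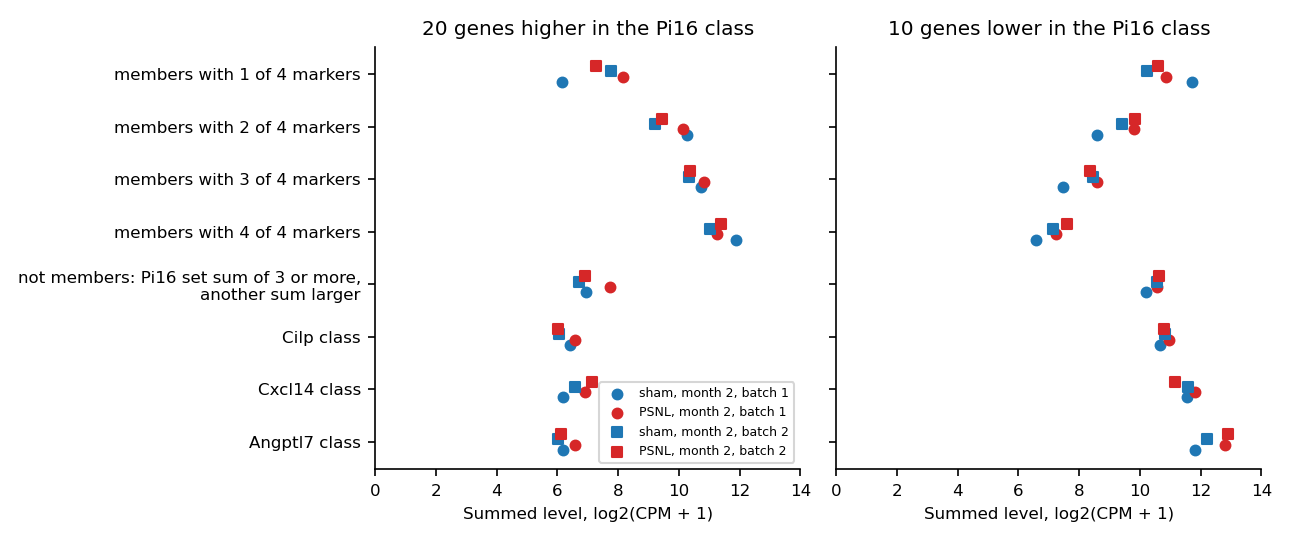
Summed level of the 20 genes higher (left) and the 10 genes lower (right) in the Pi16 class, as log2(CPM + 1), in members with 1 to 4 of the marker genes, in gated cells with a Pi16 set sum of 3 or more and a larger other sum, and in the other classes. Points are the 4 month 2 libraries, blue for sham and red for PSNL, circles for batch 1 and squares for batch 2. The left values climb from 1 to 4 markers in each library and the right values descend.

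To describe what else distinguished these cells, their summed UMIs were compared with those of each other class in the 4 month 2 libraries, with the library as a block (edgeR's quasi-likelihood test, Benjamini-Hochberg adjusted p under 0.05 over all genes tested). The 22 genes of the rule were left out. The classes were cut from the same cells, so genes that vary along with the rule genes had to differ to some degree, and a call says only that a difference was steady over the 4 libraries. Against the Cilp class 1224 genes (11.6%) of 10577 were higher and 1311 (12.4%) lower in the Pi16 class. For this comparison DESeq2 called 733 higher and 824 lower, and edgeR without the library block 721 and 757. Against the Cxcl14 class 818 (9.01%) of 9082 were higher and 761 (8.38%) lower, and against the Angptl7 class 1800 (17.5%) of 10307 were higher and 1771 (17.2%) lower. In the same direction against all 3 classes, 504 genes (5.61% of the 8983 tested in all 3) were higher and 276 (3.07%) lower. Of those with at least 20 CPM in the higher class, the 20 higher and 10 lower genes with the greatest smallest change are named. The 20 were above each other class and the 10 below each other class in 4 of 4 libraries.

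Dmkn and Krtdap, known from the skin, stood at the head of the list, and their neighbour Sbsn was also among the 20. Krtdap, Dmkn and Sbsn encode small secreted proteins of the differentiating epidermis and follow each other on the plus strand of chromosome 7 (Sbsn chr7:30751471-30756134, Dmkn chr7:30763756-30781063, Krtdap chr7:30787896-30791097, GRCm38, coordinates from GENCODE vM21), with 7622 and 6833 bases between them and no other gene inside the gaps. Krtdap stood at 507, 193, 138 and 173 CPM in the members, and 1, 3 and 1 UMIs of it were counted in the Cilp, Cxcl14 and Angptl7 classes over the 4 libraries. That made it 1449.5 (95% interval 259.7 to 57294), 216 (95% interval 73.8 to 1049.8) and 803 (95% interval 144 to 31734) times as high as in these classes, where the intervals cover counting error only. Dmkn stood at 205, 87.4, 41.1 and 84.3 CPM, with 2 UMIs in the Cilp class, 1 in the Angptl7 class and 0 in the Cxcl14 class, against which it was at least 90.4-fold higher (3 counts over the 4 libraries taken as the limit of a count of 0). Sbsn stood at 283, 121, 66.7 and 93.2 CPM, with log2 fold changes of 4.13 ± 0.18, 5.19 ± 0.27 and 4.53 ± 0.28 (SE) against the 3 classes. All 3 genes were highest in the sham library of batch 1 and lowest in the sham library of batch 2, so sham and PSNL overlapped. An exon of Sbsn overlaps Tmem147os on the same strand, and reads of the pair may have been split between them. Krt80, a keratin, stood at 30.1, 20.6, 22 and 31.1 CPM and had 0 UMIs in the Angptl7 class, against which it was at least 31.1-fold higher.

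The order over libraries was not particular to these neighbours, since Wnt10b, Itgb7 and Uchl1, also among the 20, were likewise highest in the sham library of batch 1 and lowest in that of batch 2. The 250 bases before their starts are shown because 3 genes in a row on the chromosome were among the 20, as RefSeq gives them on GRCm38.p6, 5′ to 3′ on the plus strand. Capitals mark matches on either strand to 4 motifs. A TATA box was searched with the letters TATAAA. The GC box bound by Sp factors was searched with the letters GGGCGG. The site of AP-1 factors, to which Fos and Jun belong, was searched with the letters TGACTCA. The CACCC box bound by Klf factors was searched with the letters CCACCC. No base in the windows shown belongs to matches of more than 1 motif.
Krtdap chr7:30787655-30787904: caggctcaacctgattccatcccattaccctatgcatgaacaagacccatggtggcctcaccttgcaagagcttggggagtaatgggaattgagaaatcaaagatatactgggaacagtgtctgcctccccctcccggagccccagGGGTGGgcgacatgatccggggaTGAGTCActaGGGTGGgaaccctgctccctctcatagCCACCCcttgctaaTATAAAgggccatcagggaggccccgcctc
Dmkn chr7:30763506-30763755: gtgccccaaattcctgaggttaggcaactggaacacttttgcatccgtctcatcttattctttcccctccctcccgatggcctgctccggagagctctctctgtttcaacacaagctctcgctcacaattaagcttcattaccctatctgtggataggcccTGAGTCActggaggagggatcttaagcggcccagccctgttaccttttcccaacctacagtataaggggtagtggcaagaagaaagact
Sbsn chr7:30751221-30751470: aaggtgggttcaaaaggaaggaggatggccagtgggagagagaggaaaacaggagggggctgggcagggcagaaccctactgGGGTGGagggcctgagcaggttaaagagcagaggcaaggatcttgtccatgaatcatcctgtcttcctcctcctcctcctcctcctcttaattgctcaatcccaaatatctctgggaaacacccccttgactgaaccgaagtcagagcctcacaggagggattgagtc
TGACTCA was found in the windows of Krtdap (first base 81 bases before the start) and of Dmkn (89 bases) and in 4.46% of 32851 promoters of this length, TATAAA 30 bases before the Krtdap start and in 12.4%, and CCACCC 3 times before Krtdap, 1 time before Sbsn and in 28.1%. GGGCGG was in none of the 3 windows and in 32.7% of all. The other Dmkn starts in RefSeq also held TGACTCA, and a match of letters is not a measured site.

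Some of the 20 are better known from the nervous system. Gap43, a growth cone protein that is also made by repair Schwann cells, stood at 24.3, 17.5, 16.7 and 26.1 CPM, with 0 UMIs in the Angptl7 class and 1 each in the Cilp and Cxcl14 classes, and was at least 25.4-fold higher than in the former. Uchl1, a deubiquitinase of neurons, stood at 226, 99.8, 82.2 and 135 CPM, with log2 fold changes of 3.11 ± 0.23, 3.94 ± 0.24 and 4.34 ± 0.25 (SE), and Stmn4, a stathmin that binds tubulin, at 80.7, 59.3, 74.4 and 68.5 CPM, with 4.65 ± 0.25, 4.96 ± 0.34 and 5.57 ± 0.41. Tmeff1, a membrane protein with follistatin domains, stood at 17.5, 28.7, 13.7 and 25.1 CPM. Gap43 and Stmn4 were level across libraries, while Uchl1 was again highest in the sham library of batch 1. Uchl1 has an overlapping antisense gene on the other strand.

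The other 12 of the 20 were of several kinds. Pla1a, a phospholipase that acts on phosphatidylserine, stood at 558, 436, 378 and 484 CPM, with 5.34, 42 and 44.4 CPM in the Cilp, Cxcl14 and Angptl7 classes and log2 fold changes of 6.11 ± 0.17, 3.31 ± 0.22 and 3.32 ± 0.16 (SE; edgeR adjusted p = 5.40e-13, 9.11e-11 and 4.05e-12; higher in 4 of 4 libraries each). Wnt10b, a Wnt ligand, stood at 151, 96.1, 57.8 and 73 CPM and had 0 UMIs in the Angptl7 class, against which it was at least 105-fold higher. Its log2 fold changes against the Cilp and Cxcl14 classes were 3.52 ± 0.22 and 4.89 ± 0.30. Dact2, which modulates Wnt and TGF-beta signalling, stood at 88.5, 109, 75 and 135 CPM, and Itgb7, an integrin chain best known from lymphocytes, at 122, 55.5, 37.5 and 85.8 CPM, with 4, 0 and 4 UMIs in the Cilp, Cxcl14 and Angptl7 classes. Ackr2, a decoy receptor that takes up inflammatory CC chemokines, stood at 36.9, 36.8, 35.7 and 54.2 CPM, against at most 3.72 CPM in any library of the other classes. Adamts16, a secreted metalloprotease, reached 28.6 to 71 CPM, Car8, of the carbonic anhydrase family, 66.1 to 115 CPM, Chst1, a sulfotransferase, 50.0 to 108 CPM, and Lrrc8b, a subunit of volume-regulated anion channels, 16.7 to 31.1 CPM. Aif1l (51.8 to 123 CPM), Fam167a (25.6 to 77.8 CPM) and 1700019D03Rik (159 to 225 CPM) complete the 20. Exons of Aif1l, Dact2 and Krt80 overlap genes on the other strand.

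The 10 genes lowest in the class included signalling receptors and lipid and growth factor genes of the other fibroblasts. Apoe, a lipid carrier, stood at 104, 308, 235 and 227 CPM, against 1018, 2379 and 3757 CPM in the Cilp, Cxcl14 and Angptl7 classes, with log2 fold changes of -2.39 ± 0.16, -3.48 ± 0.17 and -4.05 ± 0.18 (SE). Crispld2, a secreted protein of the same CAP superfamily as Pi16, stood at 19.4, 10.6, 47 and 37.5 CPM against 148, 125 and 893 CPM, and Cpxm2, a carboxypeptidase-like secreted protein, at 7.78, 6.86, 7.74 and 14.3 CPM against 128, 64.8 and 239 CPM. Mdk (midkine, a heparin-binding growth factor) stood at 10.7, 33.7, 44.7 and 46.8 CPM against 210.5, 173 and 282 CPM. The receptors P2ry1 (for ADP) and Adcyap1r1 (for PACAP) reached 0.624 to 8.93 and 1.48 to 7.49 CPM in the members, and Mylk, the kinase of myosin light chain, 1.25 to 4.86 CPM, against 116 to 198 CPM in the Angptl7 class. Pdgfrl (0.972 to 12.5 CPM), Hsd11b1, which regenerates active glucocorticoid (3.74 to 17.3 CPM), and Ier3, an immediate early gene (6.41 to 27.5 CPM), were the remaining genes. Direction and call of all 30 named genes held in each alternative that gave them a value.

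**Figure D3:**
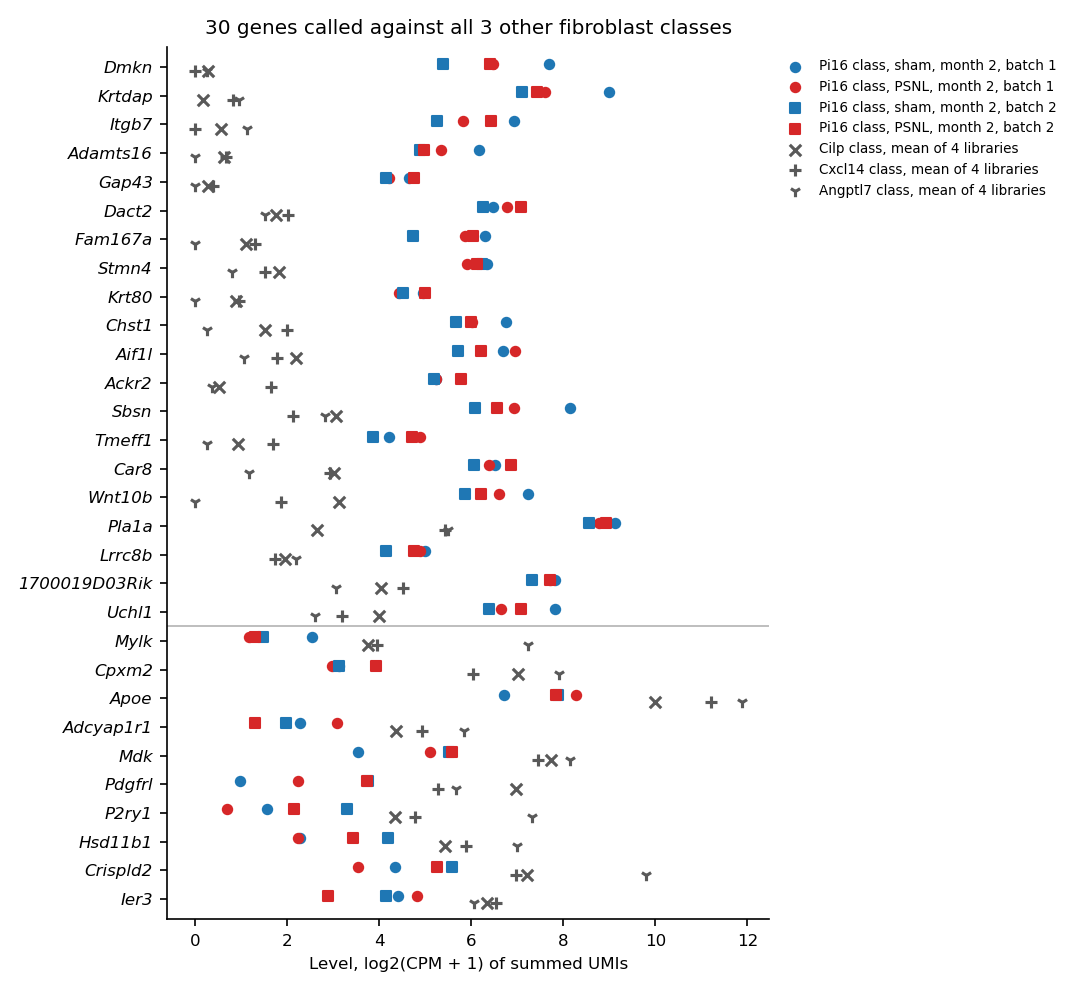
Levels of the 20 genes higher (above the line) and the 10 lower (below it) in the Pi16 class than in each other class, as log2(CPM + 1) of summed UMIs. Coloured points are the Pi16 class in single month 2 libraries, blue for sham and red for PSNL, circles for batch 1 and squares for batch 2, and grey marks are means of the other classes over 4 libraries. For the 20 genes all coloured points lie to the right of the grey marks, and for the 10 genes to the left.

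Of 22 genes listed as typical of adventitial fibroblasts, 21 were called higher than in each of the 3 classes, where 11.6%, 9.01% and 17.5% of all genes were called higher. The list had medians of 2.02, 1.60 and 3.16 on the log2 scale against the Cilp, Cxcl14 and Angptl7 classes, and the medians over all genes were 0.01, 0.00 and 0.03. The list was drawn up with this class in mind and with earlier results of these data known. Its counts are therefore a description and not an independent test of what the cells are. Among its members, Cd34, the surface sialomucin of many stromal and progenitor cells, stood at 1033, 994, 879 and 1098 CPM against 374, 432 and 533 CPM, and Ly6c1 and Ly6a (Sca-1), GPI-anchored surface proteins, at 1363, 1416, 1196 and 1290.5 CPM and 2617, 2280.1, 2477 and 2319 CPM. Ly6c1 was at 44.9 ± 14.3 CPM in the Angptl7 class. Cd55, which dampens complement at the cell surface, stood at 482, 489, 375 and 644 CPM, with log2 fold changes of 3.48 ± 0.16, 3.08 ± 0.14 and 3.70 ± 0.25 (SE). Pcsk6, a proprotein convertase, stood at 480.2, 400.0, 265 and 327 CPM, against 1.84 ± 1.35 CPM in the Angptl7 class, with log2 fold changes of 3.00 ± 0.13, 3.32 ± 0.15 and 7.06 ± 0.26. Efhd1, a mitochondrial calcium-binding protein, stood at 395, 330.1, 229 and 312 CPM, with 4.88 ± 0.15, 3.36 ± 0.16 and 1.33 ± 0.14. Il33, an alarmin cytokine, was the exception. At 112, 135, 105 and 120.3 CPM it did not pass the test against the Cilp and Cxcl14 classes and was lower than in the Angptl7 class, at 503 ± 53.7 CPM there (log2 fold change -2.16 ± 0.14).

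Fibril and elastic fibre genes held members of both directions. The shares over all genes, 11.6%, 9.01% and 17.5% higher and 12.4%, 8.38% and 17.2% lower, are the measure for these counts. Of the fibril collagens and proteoglycans, 15 of 21 were lower and 2 higher than in the Cilp class, 12 of 20 lower and 4 higher than in the Cxcl14 class, and 6 lower and 7 higher than in the Angptl7 class. Col1a1 stood at 2506, 2759, 2787 and 2489 CPM, with 7038, 4881 and 4766 CPM in the other classes and log2 fold changes of -1.52 ± 0.11, -0.92 ± 0.08 and -0.81 ± 0.19 (SE). Bgn (biglycan) stood at 164, 239, 208 and 177 CPM, with -2.77 ± 0.13, -1.92 ± 0.13 and -0.89 ± 0.14, and Fmod (fibromodulin), at 189 ± 55.8 CPM in the Cilp class, had at most 3.57 CPM in the members. Col14a1, a collagen of fibril surfaces, was the 1 gene of the list higher than in all 3 classes, at 914, 1039.6, 737 and 1222 CPM, with 0.65 ± 0.12, 1.22 ± 0.13 and 5.24 ± 0.19. Of the elastic fibre and microfibril genes, 8, 10 and 14 of 20 were higher and 11, 4 and 2 lower in the 3 comparisons. Fbn1 (fibrillin-1), the core of microfibrils, stood at 1442, 1278, 1182 and 1472 CPM against 278, 556 and 324 CPM, and Mfap5 and Emilin2, which bind to microfibrils and elastic fibres, at 1937, 1682, 1589 and 1747 CPM and 380.1, 349, 329 and 366 CPM. The 3 genes were higher than in each class. Eln (elastin) and its crosslinker Lox were lower than in the Cilp class, with log2 fold changes of -1.50 ± 0.15 and -2.16 ± 0.16, and higher than in the Angptl7 class, with 3.38 ± 0.19 and 3.86 ± 0.28.

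Of the basement membrane genes, 7 of 16, 4 of 15 and 3 of 15 were higher and 5, 6 and 6 lower. Over all genes 11.6%, 9.01% and 17.5% were higher and 12.4%, 8.38% and 17.2% lower, so that the 3 of 15 higher than in the Angptl7 class are near the share over all genes. Nid1 (nidogen-1) was higher than in all classes, at 1713, 1567, 1507 and 1537 CPM and log2 fold changes of 1.53 ± 0.10, 0.79 ± 0.08 and 0.71 ± 0.12 (SE). Col15a1 and Smoc2 were lower than in all of them. Col15a1 stood at 32.1, 51.8, 65.5 and 63.6 CPM against 128, 373 and 1467 CPM, and Smoc2 at 105, 98.6, 208 and 172 CPM against 433, 373 and 3551 CPM. Lists of complement, growth factor and Wnt genes differed by the class they were set against. Complement genes were lower than in the Cilp class in 7 of 11 and higher in 2, lower than in the Cxcl14 class in 6 of 10 and higher in 1, and higher than in the Angptl7 class in 9 of 11 and lower in 1. C3, the centre of the cascade, stood at 3115, 4077, 3083 and 2726 CPM against 229 ± 210.2 CPM in the Angptl7 class. Growth factor genes were higher in 7 of 21, 7 of 18 and 15 of 17 and lower in 12, 10 and 2 of the same. Igfbp5, an IGF-binding protein, stood at 5108, 6091, 3585 and 5481 CPM, with 1.72 ± 0.10, 1.97 ± 0.14 and 1.86 ± 0.18, whereas Igf1 stood at 615, 943, 852 and 867 CPM, with -1.23 ± 0.11, -1.24 ± 0.09 and 0.73 ± 0.14. Pdgfc, Fgf2 and Vegfd, secreted growth factors, were higher than in all 3 classes, at 26.8 to 39.9, 69.1 to 119 and 168 to 230.4 CPM in the members.

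Wnt genes were higher in 2 of 14, 4 of 11 and 8 of 12 and lower in 6, 4 and 1. Of all genes, 11.6%, 9.01% and 17.5% were higher and 12.4%, 8.38% and 17.2% lower, and the 2 of 14 and the 1 of 12 are not above these shares by more than 1 gene. Besides Wnt10b, Wnt11 was higher in all 3 comparisons, at 74.9, 43.1, 32.8 and 40.4 CPM against 18.8, 22.1 and 3.63 CPM. Wnt2 stood at 23.3, 26.2, 18.5 and 28.1 CPM, with 0.621 ± 1.24 and 0.198 ± 0.396 CPM in the Cxcl14 and Angptl7 classes, and did not pass the test against the Cilp class. Of the TGF-beta and BMP genes, 7 of 20, 9 of 15 and 11 of 18 were higher and 8, 3 and 4 lower. Tgfb2, its receptor gene Tgfbr2 and Bmp2 were higher in all comparisons, Tgfbr2 at 447, 478, 403 and 537 CPM against 169, 178 and 139 CPM, Tgfb2 at 91.7 to 137 CPM and Bmp2 at 23.2 to 40.8 CPM.

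Among chemokines and cytokines, 6 of 15 were higher and 3 lower than in the Cilp class, 3 of 16 higher and 8 lower than in the Cxcl14 class, and 6 of 17 higher and 7 lower than in the Angptl7 class. The shares over all genes were 11.6%, 9.01% and 17.5% higher and 12.4%, 8.38% and 17.2% lower, and the 3 lower of 15 and the 3 higher of 16 are the counts nearest to them. Cxcl12, which attracts many leukocytes and is a substrate of Dpp4, was lower in all 3, at 100.1, 206, 217 and 162 CPM against 645, 2023 and 379.9 CPM (log2 fold changes -2.06 ± 0.13, -3.56 ± 0.16 and -1.24 ± 0.14, SE). Ackr3, which scavenges Cxcl12, was higher in all 3, at 1047, 909, 608 and 773 CPM against 159, 136 and 104 CPM. Ccl11 (eotaxin), another substrate, stood at 484, 617, 716 and 487 CPM against 2397 ± 390.4 CPM in the Angptl7 class. Of the mediators of pain that the study followed, 3, 3 and 4 were tested, and 1, 0 and 0 were higher and 1, 2 and 2 lower. Il6 had 5.83 to 15 CPM in the members and was lower than in the Cxcl14 class (-1.60 ± 0.31), and Ccl2 had 20.4, 86.1, 4.76 and 25.1 CPM and was lower than in the Angptl7 class (-3.70 ± 0.36). The 1 higher was Ccl2 against the Cilp class, with a log2 fold change of 1.50 ± 0.40 (SE; edgeR adjusted p = 0.00952). That call was lost without the PSNL library of batch 1 (0.83, edgeR adjusted p = 0.253), without that of batch 2 (1.12, edgeR adjusted p = 0.0766), without the library block (edgeR adjusted p = 0.162) and with DESeq2 (adjusted p = 0.408). No UMI of Tnc was counted in the members at month 2, which allows up to 0.473 CPM over the 4 libraries.

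Immediate early and stress genes, which dissociation of tissue is known to induce, were lower than in the Cxcl14 class in 16 of 19 and in the Angptl7 class in 15 of 19, and higher in 0, with medians of -1.29 and -1.78 on the log2 scale. Fos stood at 351, 1034, 963 and 1028 CPM against 2821 and 4498 CPM in these classes, and Jun at 520.1, 1171, 1284 and 1500.0 CPM against 2928 and 3739 CPM. Both were lowest in the sham library of batch 1. Against the Cilp class 4 of the 19 were higher and 5 lower, beside 11.6% and 12.4% of all genes. Over all genes 8.38% were lower than in the Cxcl14 class, and 17.5% higher and 17.2% lower than in the Angptl7 class. Interferon genes were higher than in the Angptl7 class in 13 of 17 and lower in 0, while 7 were higher and 2 lower than in the Cilp class and 0 higher and 5 lower than in the Cxcl14 class. Oasl2 stood at 75.8, 45.6, 41.7 and 38 CPM against 6.01 ± 4.63 CPM in the Angptl7 class.

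The families of the marker genes are set beside the shares over all genes, which were 11.6%, 9.01% and 17.5% higher and 12.4%, 8.38% and 17.2% lower. Of the class 3 semaphorins and their receptors, 2 of 10, 4 of 8 and 3 of 8 were higher and 1, 2 and 3 lower. Sema3e, a ligand of Plxnd1, was higher in all 3 comparisons, at 74.9, 33.1, 38.1 and 65.6 CPM against 6.44, 2.14 and 0.396 CPM, as was the receptor Plxna1, at 73.9, 71.1, 48.8 and 75.9 CPM against 17, 27.1 and 16.3 CPM. Of sphingomyelin and ceramide genes, 3 of 18, 3 of 17 and 4 of 17 were higher and 3, 2 and 2 lower, close to these shares. Plpp3, a lipid phosphate phosphatase, was higher in all, at 3370.4, 3214, 3126 and 2926 CPM against 1444, 1678 and 927 CPM. Of the peptidase family and the substrates of Dpp4, 2 of 9, 0 of 10 and 2 of 10 were higher and 4, 4 and 2 lower, and Fap, the closest relative of Dpp4, stood at 88.5, 113, 121 and 145 CPM, with 152, 136 and 139.9 CPM in the other classes. Of the CAP and inhibitor genes, 4 of 14 were higher in each comparison and 7, 8 and 6 lower. Serpinb6a and Timp2 were higher in all 3, and Cst3 (cystatin C) was lower in all 3, at 989.6, 955, 1671 and 1049 CPM against 7379, 3957 and 2579 CPM.

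Of the transcription factors, 6 of 20, 4 of 18 and 6 of 20 were higher and 5, 6 and 8 lower. Beside these and the counts that follow stand 11.6%, 9.01% and 17.5% higher and 12.4%, 8.38% and 17.2% lower over all genes. Klf4 was higher in all comparisons, at 1117, 1019.6, 1139 and 1377 CPM against 379.8, 835 and 225 CPM. Foxs1 and Etv1 were lower than in the Angptl7 class, with log2 fold changes of -7.34 ± 0.32 and -4.64 ± 0.24 (SE), Foxs1 with 11 UMIs in the members against 1007. Hox genes, which record position along the body, were lower than in the Cilp class in 5 of 8 and not called against the Cxcl14 class, and 2 of 8 were higher than in the Angptl7 class. Hoxa10 stood at 74.9, 72.4, 78.6 and 84.3 CPM against 184 ± 33.2 and 45.2 ± 11.1 CPM in the Cilp and Angptl7 classes. Of the retinoic acid genes, 2, 3 and 4 of 10 were higher and 4, 5 and 4 lower. Aldh1a3, which makes retinoic acid, was higher in all, at 181, 129, 94.1 and 147 CPM against 15.8, 13.7 and 18.1 CPM. Of the fibrosis genes, 4 of 17, 2 of 15 and 8 of 15 were higher and 11, 6 and 4 lower. Postn (periostin) and Fn1 (fibronectin) were the 2 higher in all comparisons. Postn stood at 422, 964, 675 and 709 CPM against 229.6, 266 and 18.2 CPM, and Fn1 at 4649, 4680.0, 3691 and 4405 CPM against 1855, 739 and 904 CPM. Col8a1 was lower in all, with log2 fold changes of -3.76 ± 0.19, -1.49 ± 0.27 and -3.65 ± 0.26 (SE).

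**Figure D4:**
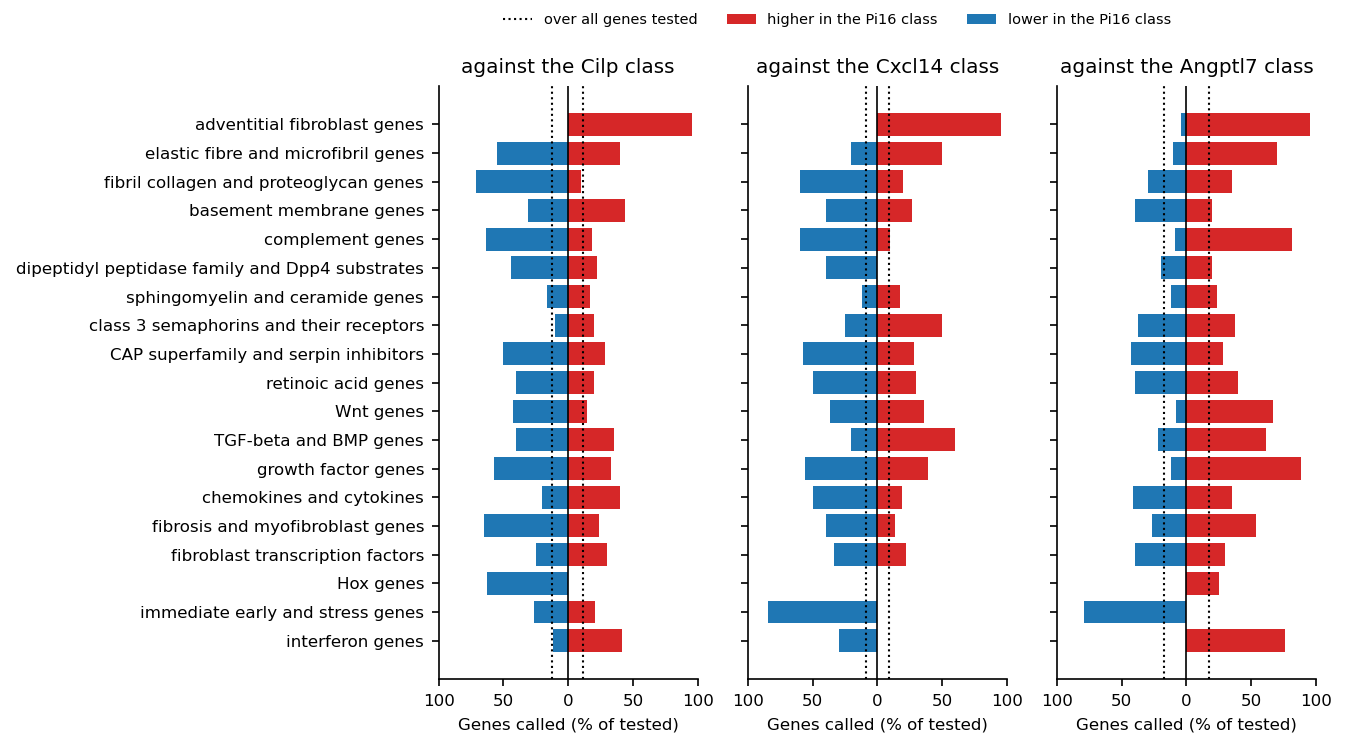
Share of each gene list (horizontal axis, % of the genes tested) called higher (red, to the right) or lower (blue, to the left) in the Pi16 class than in the Cilp, Cxcl14 and Angptl7 class over 4 libraries. Dotted lines give the same shares over all genes tested, 11.6% and 12.4%, 9.01% and 8.38%, and 17.5% and 17.2%. The adventitial list, drawn up with this class in mind and earlier results known, reaches 21 of 22 in each panel. The complement, growth factor and interferon lists lie to the right mainly against the Angptl7 class.

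Within the class, a few genes varied widely between cells. With each member thinned to 1000 UMIs, 22 of 529 genes with a mean of at least 0.2 UMIs had a variance of more than 2 times their mean in every month 2 library, where the median over all 529 was 1.18 times. Named after their values were seen, the protein-coding genes among the most variable were Apod, a lipocalin, Gsn (gelsolin), Igfbp5, Fos, Dcn (decorin), Col3a1, Myoc (myocilin) and Gpx3. Igfbp5 had ratios of 5.67, 9.43, 6.69 and 6.74, and Dcn of 3.19, 2.70, 6.97 and 6.76.

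Whether the class differed 2 months after ligation was tested on the members alone, with 2 sham and 2 PSNL libraries. The fit had no batch term, so its standard errors do not use the pairing of libraries within a batch. None of 10923 genes was called (0%; edgeR's quasi-likelihood test), and 201 had an unadjusted p under 0.05. DESeq2 also called 0, with 67 under 0.05, and so did edgeR with the batch as a block, with 395 under 0.05. In the edgeR fit without that block, the standard error of the log2 fold change had a median of 0.33. There 2.34% of the genes had a fitted change beyond 1 in either direction. PSNL and sham differed in the same direction in both batches for 50.3% of the genes. The count depended on the libraries, since 151 genes (38 higher and 113 lower after PSNL) were called without the sham library of batch 2 and 2 without the PSNL library of batch 1, fits in which the lone library of a group is assumed to vary like the other group, and on the filter, since 38 were called with none. Among matrix genes, Col1a1 stood at 2506, 2759, 2787 and 2489 CPM, Col3a1 at 4383, 4955, 5198 and 3839 CPM and Postn at 422, 964, 675 and 709 CPM, with log2 fold changes of -0.03 ± 0.24, -0.14 ± 0.27 and 0.59 ± 0.30 (SE), and the sham and PSNL values overlapped for Col1a1 and Col3a1 but not for Postn.

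Without passing the test, some genes had both PSNL libraries on one side of both sham libraries. Over all 10923 genes tested, 14.8% had both PSNL libraries above and 12.6% below, and of the 300 tested genes of the 29 lists 48 (16%) stood above and 27 (9%) below, which is near the shares over all genes. From these, 4 were chosen for description after their values were seen. Has1, a hyaluronan synthase, had 34, 56.8, 39.3 and 110.4 CPM (log2 fold change 1.15 ± 0.33, SE; edgeR adjusted p = 1.00), higher after PSNL in both batches. Lox had 100.1, 63.6, 97.1 and 41.9 CPM (-0.93 ± 0.28, edgeR adjusted p = 1.00), lower in both. Ccl2 had 20.4, 86.1, 4.76 and 25.1 CPM (2.24 ± 0.74, edgeR adjusted p = 1.00), higher in both, with the PSNL library of batch 2 only slightly above the sham library of batch 1. Egr1 had 431, 1136, 731 and 1110.1 CPM (0.93 ± 0.29, edgeR adjusted p = 1.00). Like Fos and Jun it was lowest in the sham library of batch 1, the library that stood apart. In the fit without the sham library of batch 2, where that library is the only sham, the log2 fold change of Egr1 was 1.33. The Y-linked gene Eif2s3y, in none of the lists, was also picked after its values were seen. It had 40.8, 19.97, 36.3 and 16.3 CPM (-1.11 ± 0.29, SE, not called), lower after PSNL in both batches. In the other gated cells it had 30.1, 10.7, 28.3 and 19.7 CPM, likewise lower in both. Whether the share of male cells differed between the sham and PSNL pools was not tested.

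The difference between the PSNL effect in the Pi16 class and that in the other gated fibroblasts was tested as an interaction, and 3 of 12189 genes (0.0246%) were called. Prss23, a secreted serine protease on chromosome 7, met the rule for named genes. Its level in the members was 381, 394, 305 and 432 CPM, and in the other gated cells 84.4, 215, 72.9 and 243 CPM. The gene was higher after PSNL in both batches in the members and in the pooled sum of the other gated cells, by less in the members (difference of the log2 effects -1.20 ± 0.17 (SE), edgeR adjusted p = 0.0174, same direction in both batches). In the Cilp class it stood at 56.6, 275, 70.5 and 315 CPM, higher after PSNL in both batches. In the Cxcl14 class it stood at 218.5, 197.5, 165 and 408 CPM and in the Angptl7 class at 21.5, 3.76, 10.9 and 29.3 CPM, in both lower after PSNL in batch 1 and higher in batch 2. Set against the Cilp class alone the difference was -1.81 (adjusted p = 2.00e-04), and against the Cxcl14 and Angptl7 classes alone -0.29 and -0.28, which did not pass. C430049B03Rik, a non-coding RNA gene, had 1.94, 14.4, 2.98 and 23.7 CPM in the members and 15.1, 2.77, 17 and 10.0 CPM in the other gated cells (difference 4.26 ± 0.60, SE, edgeR adjusted p = 0.0174). The levels in the members rest on only 2, 23, 5 and 48 UMIs. Lower levels after PSNL were seen in the Angptl7 class, at 54.9, 3.76, 42.9 and 12.7 CPM. In the Cilp class, at 0, 0.900, 2.07 and 8.82 CPM, and in the Cxcl14 class, at 0, 3.14, 0 and 6.59 CPM, the gene was higher after PSNL in both batches, as in the members. The make-up of the other gated cells differed too, since the Angptl7 class held 22.8%, 6.70%, 23.7% and 19.6% of the gated cells in the 4 libraries, and its part in the difference was not tested. Set against the Angptl7 class alone this difference was 5.26 (adjusted p = 2.27e-06), against the Cilp class alone 1.02 and against the Cxcl14 class alone -2.70, of the other sign, and the last 2 did not pass. The sham libraries of the Cxcl14 class each held 0 CPM of the gene, so the sign and size of the -2.70 are not reliable. DESeq2 called 0 genes, with an adjusted p of 0.0737 for both, and with cells of at least 2000 UMIs the adjusted p was 0.0641 for Prss23 and 0.0850 for C430049B03Rik. Leaving out a library kept the size of the differences, at -1.25 to -1.15 for Prss23 and 3.93 to 5.03 for C430049B03Rik, but not every call. Without the PSNL library of batch 1 the adjusted p of Prss23 and C430049B03Rik was 1, without the PSNL library of batch 2 that of Prss23 was 0.0829, and without the sham library of batch 2 that of C430049B03Rik was 0.0765.

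At day 5 after PSNL, 61 cells of a single library were members. The sham library of day 5 was not analysed, since its counts were not at hand, so the values are set against month 2 without a test. In the libraries used, time, surgery and library cannot be told apart. Intervals are exact Poisson intervals of the counts at 95%. Smpd3 was low, with a UMI in 14 of 61 cells and 99.1 CPM, while Sema3c was seen in all 61. Of 7114 genes at 20 CPM or more at either time, 96 (1.35%) were at least 4-fold above the highest and 48 (0.675%) at least 4-fold below the lowest month 2 library, a rule of size set after the data were seen. The fibrosis list held 8 of the former among 18 genes considered, and the collagen and proteoglycan list 4 among 20. Col1a1 was at 26079 CPM (25729.7 to 26431) and Col3a1 at 31389 CPM (31006 to 31775), against at most 2787 and 5198 CPM at month 2. Cthrc1, a secreted protein of injured and fibrotic tissue, was at 909 CPM (845 to 977) against 3.45 to 3.89 CPM, Timp1 at 378 CPM (337 to 423), Lox at 712 CPM (655 to 772), Runx1 at 249.6 CPM (217 to 286) and the fetal fibrillin gene Fbn2 at 246 CPM (213 to 282). Tnc, with 0 UMIs at month 2, was at 47.7 CPM (33.9 to 65.2), and Il6 at 94.2 CPM (74.4 to 118). In the other gated cells of day 5, Col1a1 stood at 23452 CPM, Cthrc1 at 711 CPM, Timp1 at 1085 CPM and Tnc at 239.8 CPM.

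Genes that set the class apart at month 2 were mostly lower at day 5. All 4 markers were found in 12 of the 61 members there (19.7%), against 34.7% to 62.4% by library at month 2. The part of this in the lower levels was not tested. Of the 20 genes higher in the class, which were chosen for being high at month 2, 15 were below the lowest month 2 library, as were 17 of the 22 adventitial genes, against 33.8% of all 7114 genes. These sets overlap, since Stmn4 belongs to both. Above the highest month 2 library were Gap43 and Tmeff1 of the former and Has1, Heg1 and Ly6a of the latter, against 30.4% of all genes. Stmn4 was at 12.2 CPM (5.87 to 22.5), Dact2 at 14.7 CPM (7.59 to 25.6), Itgb7 at 6.12 CPM (1.99 to 14.3) and Krt80 at 1.22 CPM (0.0310 to 6.82), and of the retinoic acid genes Adh1 was at 6.12 CPM (1.99 to 14.3) and Adh7 at 3.67 CPM (0.757 to 10.7). Ltbp4, which anchors latent TGF-beta to elastic fibres, was at 37.9 CPM (25.8 to 53.8) against 309 CPM or more. Gap43 was at 84.4 CPM (65.7 to 107) against 16.7 to 26.1 CPM, and Tmeff1 at 37.9 CPM against 13.7 to 28.7 CPM. Dmkn, at 126 CPM (103 to 153), and Sbsn, at 122 CPM (99.6 to 149), stayed within the range of month 2, and Krtdap, at 62.4 CPM (46.5 to 82), lay below it. In the other gated cells of day 5 these 3 genes had 14.2, 20.5 and 1.32 CPM.

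**Figure D5:**
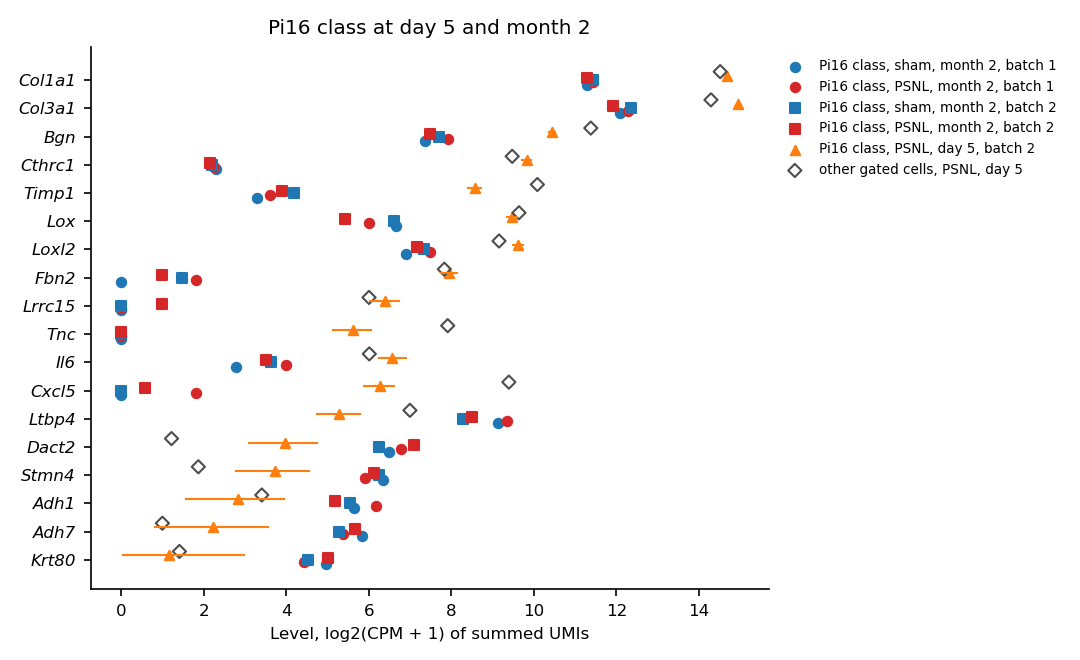
Levels in the Pi16 class at day 5 after PSNL (orange triangles, with 95% exact Poisson intervals of the counts as lines) and in the 4 month 2 libraries (blue sham, red PSNL, circles batch 1, squares batch 2), as log2(CPM + 1), with the other gated cells of day 5 as open diamonds. The upper 12 genes lie above and the lower 6 below all month 2 libraries, in a single day 5 library.

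Markers of other cells were summed over the members of each month 2 library. Of the 9 lists, the sums were lowest for leukocytes (1.25 to 7.15 CPM over 10 genes, with 5 to 8 at 0), red cells (0 to 0.972 CPM), muscle satellite cells (1.25 to 3.89 CPM), mesothelial cells (20.4 to 39.9 CPM, against 10.9 to 28.9 CPM in the other gated cells) and mural cells (12.6 to 63.7 CPM, against 76.0 to 123 CPM). Perineurial markers came to 102 to 163 CPM, endothelial markers to 166 to 751 CPM, adipose markers to 354 to 788 CPM and Schwann cell markers to 463 to 828 CPM, against 175 to 342, 130.2 to 489, 696 to 1394 and 564 to 911 CPM in the other gated cells. The mesothelial and the endothelial sum were higher in the members than in the other gated cells in 4 of 4 libraries, and the mural and perineurial sums lower in 4 of 4. The endothelial sum was highest in the sham library of batch 1, where Cldn5, Egfl7, Emcn and Esam were at 0 and Pecam1 alone gave 743 CPM (its level was above each other class in 4 of 4 libraries), and the Schwann cell sum in the sham library of batch 2. Among barcodes of 10 to 100 UMIs, which hold free RNA, the Schwann cell list came to 322, 2099.6, 4585 and 11284 CPM. The endothelial list came to 11937, 5484, 5185 and 2653 CPM there. Its sums in the members and in the other gated cells fell in the same order of libraries. The part of free RNA in the endothelial sum of the members was not tested. With free RNA subtracted, 2329, 1422 and 3262 genes were called against the Cilp, Cxcl14 and Angptl7 classes, 0 between PSNL and sham and 3 in the interaction.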

How the data were processed

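Single-cell libraries (10X Genomics 3′, version 3) were analysed from 5 pools of sciatic nerve. The deposited counts are raw UMI counts per gene and barcode, which the authors made with kallisto and bustools on GRCm38 according to the submitters' processing notes. Which annotation release and which strand they counted is not given in the sources used here. No cell annotation was used. Barcodes with at least 1000 UMIs and under 10% mitochondrial UMIs were kept. UMIs were summed per library and class (at least 5 cells a sum) and tested with edgeR 4.0.16 (quasi-likelihood, TMM, filter on low counts) in R 4.3.3, with the library as a block between classes. The 22 rule genes and the mitochondrial genes were left out of the tests between classes and of the interaction. DESeq2 1.42.0 was the alternative tool, beside other filters, scalings, cell thresholds, subtraction of free RNA and leaving out each library. The scripts were tested on simulated data.

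The members and the gene lists were chosen with earlier results of these data known. Named were the 20 genes higher and 10 lower in the Pi16 class against all 3 classes with the greatest smallest change, at 20 CPM or more, and the called interaction genes of 1 direction in both batches. Of the 3 genes called in the interaction, 1 is not reported here. Sham and PSNL libraries of a batch share the sort, preparation and sequencing run, which pairs them; deviations of same-batch libraries from their group means correlated at 0.341 over 10923 genes. Scrublet marked 43 of 11524 barcodes, too few to have worked, so doublets were in effect not removed. Of 55421 gene identifiers, 54587 matched GENCODE vM21 with their version. Library totals of 4099617 to 19557393 UMIs set the precision, and all intervals cover counting error only.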

Additional observations from a re-analysis of the deposited data

Results flagged for a closer look

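The test of the interaction itself gave a different effect of PSNL in the Pi16 class and in the other gated fibroblasts for Prss23 and C430049B03Rik (edgeR's quasi-likelihood test, n = 2 libraries per group). The difference of the log2 effects was -1.20 for Prss23 (adjusted p = 0.0174) and 4.26 for C430049B03Rik (adjusted p = 0.0174). Neither was called with DESeq2 (adjusted p = 0.0737 for both) or with cells of at least 2000 UMIs (0.0641 and 0.0850). Against the Cxcl14 class alone the differences were -0.29 and -2.70, neither called. The latter had the other sign, but it rests on sham libraries with 0 CPM of the gene in that class. C430049B03Rik was lower after PSNL in both batches in the Angptl7 class, and higher in both in the Cilp and Cxcl14 classes and in the members. Its levels in the members rest on 2 and 5 UMIs in the sham libraries and 23 and 48 UMIs in the PSNL libraries.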

How the results depend on the processing

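PSNL minus sham in the share of gated cells (0.828 points) was -0.538 with cells thinned to 1000 UMIs and -4.98 to 6.63 with 1 library left out, negative without PSNL replicate 1 (-3.90) or sham replicate 2 (-4.98); in the share of all cells (-5.42 points) it was -14.2 to 3.36, positive without sham replicate 1. With the batch as a replicate block these differences were 0.828 and -5.42 points, and PSNL against sham in the members gave 0 calls with the block, 395 at an unadjusted p under 0.05, so that it changed no call. PSNL against sham gave 38 calls with no filter on low counts, and 0 to 151 with 1 library left out (2 without PSNL replicate 1, 151 without sham replicate 2). Against the Cilp class 1557 genes were higher or lower by DESeq2 and 1478 without the library block, and against the Cxcl14 class 932 and 908. The interaction gave 1 call with cells of at least 2000 UMIs, 0 with DESeq2, 46 with no filter, 1 to 45 with 1 library left out (45 without sham replicate 1, 1 without PSNL replicate 1, 7 without sham replicate 2, 8 without PSNL replicate 2) and, in comparisons chosen after seeing the data, 14, 0 and 25 against the Cilp, Cxcl14 and Angptl7 class alone. The sign of the fitted interaction of C430049B03Rik turned against the Cxcl14 class alone (-2.70). The sham libraries of that class held 0 CPM of the gene, so this sign is not reliable. The cause of these shifts was not tested. Over 111 genes (the 30 named, which lost no call, and genes of the lists), 1286 alternative values against the Cilp class kept direction and call, 37 lost the call and 4 gained it; these numbers were 1302, 20 and 2 against the Cxcl14 class and 1315, 9 and 3 against the Angptl7 class. With 2 libraries per group and a median SE of 0.33, small effects of PSNL were not detectable.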
